A study of Rattus norvegicus with 6 samples.

Results

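The genes described here encode the subunits of the proteasome and the proteins that assemble, activate or inhibit it. They are the rows of the deposited table whose symbol is Psma, Psmb, Psmc, Psmd, Psme, Psmf or Psmg followed by digits only, with the inducible subunits Psmb8, Psmb9 and Psmb10 left out. This rule took 45 of 24005 gene symbols, and it used no measured value. The samples were aortas of rats with chronic kidney disease, which had a subtotal nephrectomy on the left and then removal of the right kidney 1 week later, and which ate a high-phosphorus diet (1.2%) meant to speed up calcification. The exosome group (3 libraries) received ANCR/E7-EXO, the engineered exosomes of the labels, by tail vein, 10 mg/kg each time, once per 5 days. The saline group (3 libraries) received the same volume of saline for 13 weeks. Both groups therefore carried the kidney disease and the diet, and healthy aortas are not analysed here. The strain, age and sex of the rats, and whether each library came from its own rat, are not stated in the labels.

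The proteasome is the protease that degrades proteins tagged with ubiquitin in the cytosol and nucleus. Its core particle is a barrel of stacked rings, in which alpha subunits (Psma) form the gate and beta subunits (Psmb) the inner chamber. Psmb5, Psmb6 and Psmb7 carry the active sites. A regulatory particle caps the barrel: its base holds a ring of ATPases (Psmc) that unfold the substrate, and its non-ATPase subunits (Psmd) bind and trim the ubiquitin chain. In mammalian cells the transcription factor encoded by Nfe2l1 raises most subunit genes together when proteasome activity drops. Arterial smooth muscle, the main cell type of the aortic wall, uses the proteasome for the turnover of contractile and signalling proteins.

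Values were FPKM, reads scaled by gene length and by the library total, so levels can be compared between genes. Library totals implied by the steps of the values ranged from 28063355 to 44561082 in the exosome group and from 29665532 to 34009970 in the saline group. Smooth muscle markers were the most abundant of the marker lists, with a summed level of 14643 to 20825 FPKM in exosome libraries and 13213 to 21016 FPKM in saline libraries. Endothelial markers summed to 94.0 to 148.9 FPKM with exosomes and 56.3 to 79.7 FPKM with saline, and 3 of 4 had groups apart. Macrophage markers summed to 57.1 to 62.0 FPKM with exosomes and 36.2 to 40.5 FPKM with saline, again with 3 of 4 apart. Of all genes tested 21.1% had groups apart, and 9.4% had them apart in the higher direction. Groups were apart for 1 of 6 smooth muscle markers and for no tested adipocyte, skeletal and cardiac muscle or red cell marker. Adipocyte markers summed to 149.6 to 291.3 FPKM with exosomes and 142.8 to 350.1 FPKM with saline, and all 3 lymphocyte markers lay below a mean of 1 FPKM. Skeletal and cardiac muscle markers summed to 25.1 to 41.8 FPKM with exosomes and 32.6 to 51.7 FPKM with saline, and red cell markers to 64.4 to 218.9 FPKM with exosomes and 112.0 to 270.1 FPKM with saline. The part of these markers in the results below was not tested. In whole aorta, fewer cells of a type and less RNA per cell cannot be told apart.

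Of the 45 genes, 43 reached a mean of 1 FPKM over the 6 libraries and were tested. No proteasome gene differed past the threshold: limma on log2(FPKM + 1), with Benjamini-Hochberg adjustment over all 11742 genes tested, called 0 of the 43 at an adjusted p under 0.05, against 0.00852% of all genes. The smallest adjusted p was 0.259, and limma-voom on recovered reads also called 0. At an unadjusted p under 0.05 limma found 4 members, where the background was 16.0% of all genes. Of these, 2 were higher with exosomes (Psme3 and Psmd11; 6.75% of all genes were) and 2 lower (Psma4 and Psmg1; 9.24% of all genes were). The groups did not overlap for 8 members, which is 18.6% of the 43 against 21.1% of all genes tested. The 3 higher ones stand against 9.4% of all genes and the 5 lower ones against 11.7%. These shares are near or below the background. The median log2 difference, exosome minus saline, was 0.005 for the members and -0.073 for all genes tested, and 22 of the 43 members lay above 0, against 39.3% of all genes. Every 95% interval of the 43 members lay between -0.92 and 0.70 on this scale, which understates changes of low genes.

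**Figure D1:**
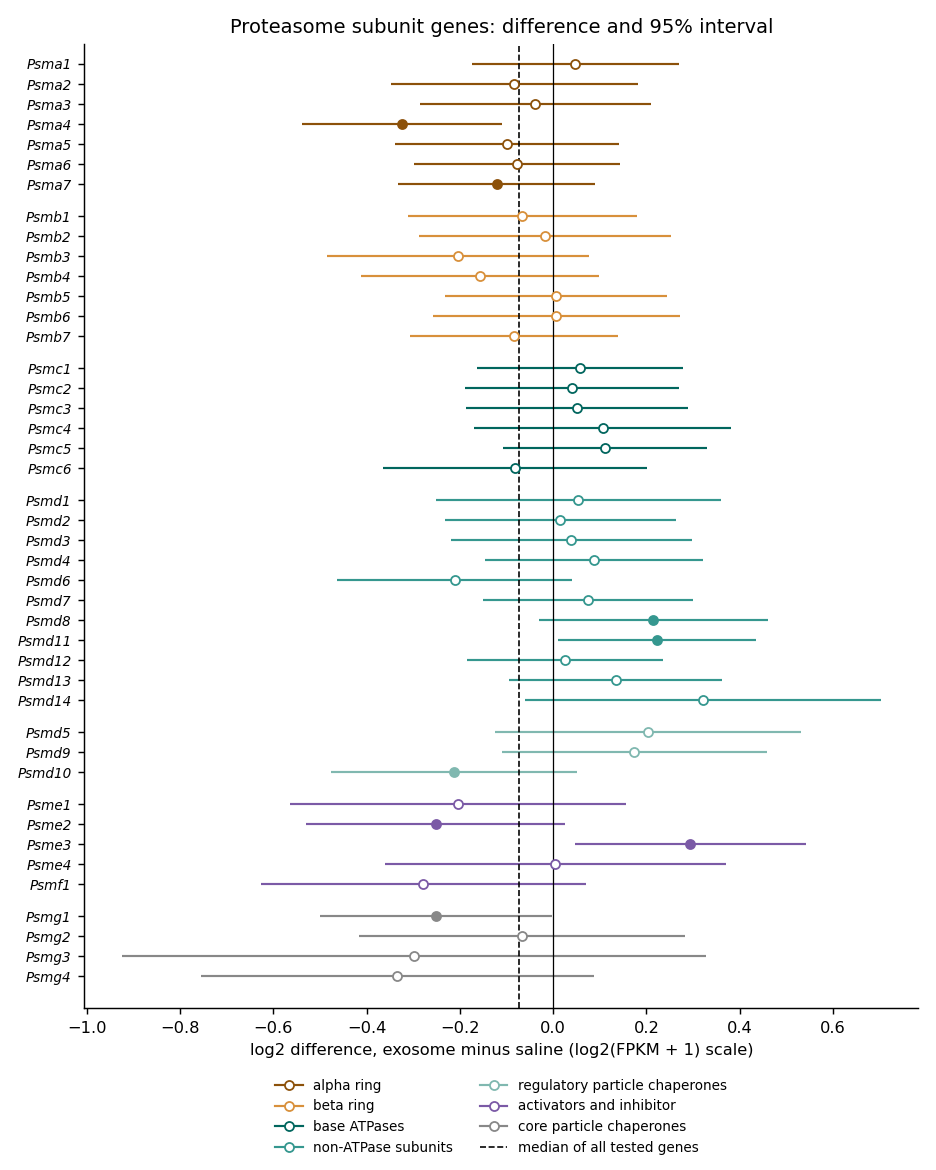
Log2 difference, exosome minus saline, of the 43 tested proteasome genes (x axis, log2(FPKM + 1) scale), ordered by role from top to bottom and coloured by it, with limma's 95% interval as bars. Filled points are the 8 genes whose groups did not overlap, and the dashed line is the median of all tested genes at -0.073: alpha and beta subunits lie mostly left of 0, Psmc and Psmd subunits mostly right of it.

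The members varied little between libraries. The median coefficient of variation over all 6 libraries was 9.04% for the members, against 14.7% for the 7876 tested genes whose mean FPKM lay in the members' range. Within that range the members stood higher, with a median mean level of 39.8 FPKM against 14.7 FPKM. The part of expression level in this contrast was not tested. Psmd12, a subunit of the lid of the regulatory particle, varied least at 2.95%, and the chaperone gene Psmg3 varied most at 28.1%. Reads of the 45 genes made up 0.263%, 0.254% and 0.254% of the library totals in exosome 1, 2 and 3, against 0.259%, 0.258% and 0.262% in saline 1, 2 and 3. The summed level of the 43 tested members was 1895, 1825 and 1817 FPKM in the exosome libraries, against 1884, 1884 and 1936 FPKM in the saline libraries. These sums overlap between the groups.

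Heat shock genes, which code for chaperones that refold proteins, were listed because earlier results of these data showed them high in 2 exosome libraries. They stood far apart between libraries of the same group. Their list score, averaged over genes as log2 deviations from each gene's mean, was 0.77, -0.81 and 1.44 in exosome 1, 2 and 3, against -0.74, -0.60 and -0.06 in saline 1, 2 and 3. The same score of the proteasome members was 0.02, -0.02 and -0.05 in the exosome libraries, against 0.03, -0.01 and 0.02 in the saline libraries. The libraries that were high for heat shock genes, exosome 1 and 3, were thus 1 above and 1 below the members' mean. The smallest adjusted p among the 12 heat shock genes tested was 0.308 in limma, and their part in the members' values was not tested.

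**Figure D2:**
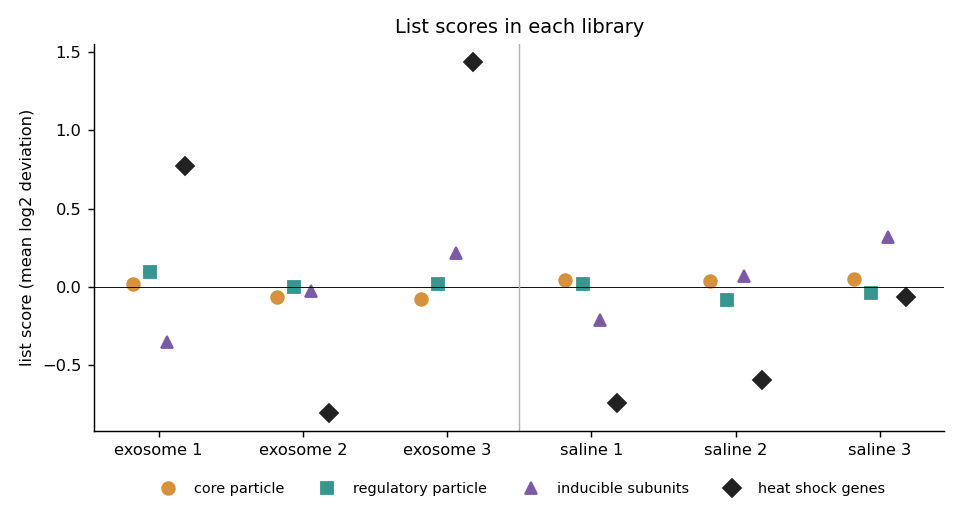
List score (y axis, mean log2 deviation from each gene's mean over the 6 libraries) of core particle genes, regulatory particle genes, inducible subunits and heat shock genes in each library (x axis, exosome libraries left of the line). Heat shock genes span -0.81 to 1.44, core particle genes -0.08 to 0.05 and regulatory particle genes -0.09 to 0.09.

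Within the alpha ring, which gates the entrance to the chamber, 6 of 7 tested subunits lay below 0, with a median log2 difference of -0.08 and no member past the threshold. Of all genes tested 60.7% lay below 0, with a median of -0.073, so the ring's median is near the background. Psma4 had the smallest p of the ring and of all members. It stood at 44.8, 42.6 and 43.7 FPKM in exosome 1, 2 and 3, against 56.9, 56.2 and 51.8 FPKM in saline 1, 2 and 3. All 3 exosome libraries were below all 3 saline libraries. The log2 difference came to -0.32 ± 0.09 (SE; limma's adjusted p = 0.259). Psma7 stood at 70.8, 71.0 and 69.5 FPKM with exosomes, against 78.0, 72.9 and 79.3 FPKM with saline, and its groups did not overlap either (log2 difference -0.12, adjusted p = 0.503 in limma). Psma5 stood at 40.6, 35.4 and 34.997 FPKM with exosomes, against 37.6, 40.3 and 41.0 FPKM with saline. Its groups overlapped, since exosome 1 lay among the saline values. Psma1 was the single subunit of the ring above 0, at a log2 difference of 0.05, and Psma2, Psma3 and Psma6 lay between -0.08 and -0.04. Psma8, the alpha subunit of testis, had 0 to 3 reads per library and was not tested.

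In the beta ring, 5 of 7 tested subunits lay below 0, with a median log2 difference of -0.07, and no groups were apart. The differences of the 3 catalytic subunits were small, between -0.08 and 0.01 on the log2 scale. Psmb5, the chymotrypsin-like site and the target of bortezomib, stood at 54.3, 57.0 and 50.5 FPKM with exosomes, against 56.7, 49.6 and 54.9 FPKM with saline. Its log2 difference was 0.01 with a 95% interval of -0.23 to 0.24. Psmb6, the caspase-like site, stood at 60.7, 53.2 and 56.4 FPKM with exosomes, against 61.6, 50.3 and 58.0 FPKM with saline. Its interval was -0.26 to 0.27, and both genes had values that were interleaved between the groups. Psmb7, the trypsin-like site, stood at 29.5, 28.3 and 26.0 FPKM with exosomes, against 29.5, 29.7 and 29.8 FPKM with saline, a log2 difference of -0.08 with an interval of -0.31 to 0.14. It had the lowest mean level of the core particle, 28.8 FPKM.

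Among the structural beta subunits, Psmb4 had the highest mean of all members, 129.1 FPKM. It stood at 122.2, 120.6 and 122.6 FPKM with exosomes, against 120.3, 141.7 and 147.2 FPKM with saline, so saline 1 lay just below the exosome values and the other saline libraries above them (log2 difference -0.16, adjusted p = 0.477 in limma). Psmb3 stood at 62.3, 47.9 and 51.1 FPKM with exosomes, against 59.3, 63.3 and 62.5 FPKM with saline (log2 difference -0.20, adjusted p = 0.410 in limma). Exosome 1 was level with saline here, and exosome 2 and 3 were below it. Psmb1 and Psmb2 had log2 differences of -0.07 and -0.02. Psmb11, the beta subunit of the thymus, had 0 to 2 reads per library and was not tested.

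**Figure D3:**
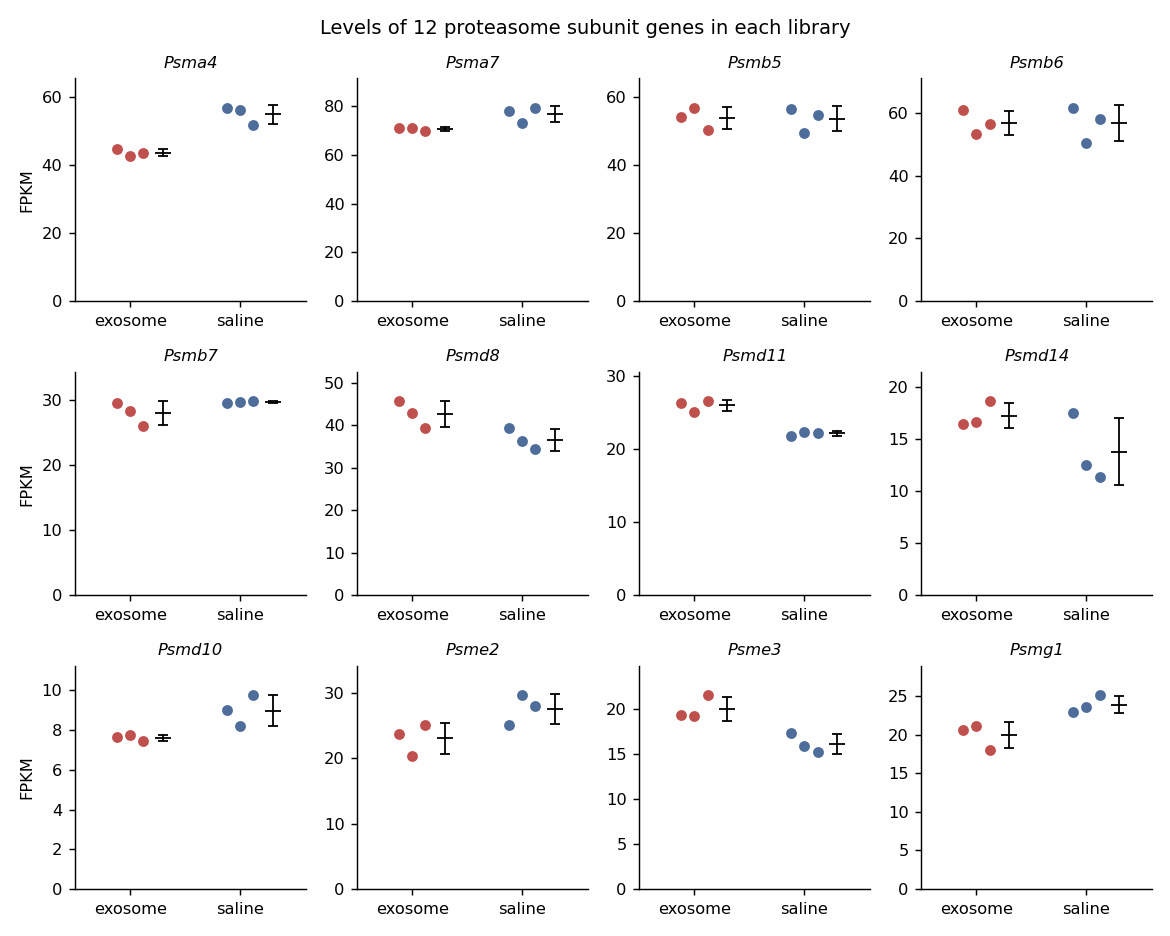
FPKM (y axis, from 0) of 12 proteasome genes in the exosome libraries (red, left) and saline libraries (blue, right), each point 1 library, with the mean and SD of 3 libraries in black. Psma4, Psma7, Psmd10, Psme2 and Psmg1 have all exosome points below the saline points, and Psmd8, Psmd11 and Psme3 have them above. The catalytic subunits Psmb5, Psmb6 and Psmb7, and Psmd14, overlap.

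In the regulatory particle the direction was mostly the other way, again with no gene past the threshold. Of the 6 ATPases of the base, which pull the substrate into the core, 5 lay above 0, with a median log2 difference of 0.05 and no groups apart. Psmc5 stood at 37.9, 38.6 and 35.9 FPKM with exosomes, against 36.4, 33.2 and 34.3 FPKM with saline (log2 difference 0.11, adjusted p = 0.551 in limma). Psmc4 stood at 44.4, 39.2 and 45.1 FPKM with exosomes, against 45.0, 36.4 and 38.2 FPKM with saline. Saline 1 was among the exosome values for both genes. Psmc6, the single ATPase below 0, stood at 28.5, 24.1 and 26.1 FPKM with exosomes, against 24.3, 29.8 and 29.4 FPKM with saline. Psmc1 had the highest mean level of the regulatory particle, 73.5 FPKM, at 77.5, 75.5 and 72.1 FPKM with exosomes, against 68.2, 71.8 and 76.2 FPKM with saline.

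Of the 11 non-ATPase subunits 10 lay above 0, with a median log2 difference of 0.07. Psmd11, a lid subunit whose human homologue raises proteasome assembly in embryonic stem cells, stood at 26.4, 25.2 and 26.6 FPKM with exosomes, against 21.8, 22.4 and 22.2 FPKM with saline. The groups were apart and each was narrow, and the log2 difference came to 0.22 ± 0.09 (SE; limma's adjusted p = 0.306). Psmd8, another lid subunit, stood at 45.7, 43.0 and 39.5 FPKM with exosomes, against 39.4, 36.2 and 34.3 FPKM with saline. Exosome 3 and saline 1 nearly touched (log2 difference 0.21, adjusted p = 0.349 in limma). Psmd14, the deubiquitinase that cuts the ubiquitin chain off the substrate, had the largest positive difference of the members over all 6 libraries. It stood at 16.5, 16.6 and 18.7 FPKM with exosomes, against 17.5, 12.6 and 11.4 FPKM with saline. Saline 1 lay inside the exosome range, so the groups overlapped (log2 difference 0.32 ± 0.16 (SE), adjusted p = 0.361 in limma). The difference was 0.492 without saline 1 and 0.204 without saline 3, where Psmd5 at 0.282, Psme3 at 0.254 and Psmd11 at 0.224 were above it. It also had the lowest mean level of the regulatory particle, 15.5 FPKM. The scaffold subunits Psmd1 and Psmd2 had log2 differences of 0.05 and 0.02, and the ubiquitin receptor Psmd4 of 0.09. Psmd6 was the single non-ATPase subunit below 0, at -0.21.

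Set against each other within a library, the regulatory and core particles gave a ratio that did not overlap between the groups. Groups were also apart for 21.1% of all single genes tested, and no such share was computed for sums or ratios of gene lists. The 17 regulatory particle genes summed to 772, 722 and 725 FPKM in exosome 1, 2 and 3, against 735, 687 and 715 FPKM in saline 1, 2 and 3. Sem1 (log2 difference -0.30) and Adrm1 (0.28), described below as parts of the same particle, fall outside the symbol rule and these sums. The 14 core particle genes summed to 879, 845 and 831 FPKM in the exosome libraries, against 896, 908 and 922 FPKM in the saline libraries. In the FPKM as deposited, the core sums did not overlap and the regulatory sums did. All genes tested summed to 428168 to 442787 FPKM in the exosome libraries and 441586 to 455493 FPKM in the saline libraries. The core sums therefore depend on how the libraries are scaled to each other. Rescaling to equal sums moved the core median log2 difference from -0.08 to -0.043, and median-of-ratios scaling moved it to -0.005. The ratio of regulatory to core levels was 0.878, 0.854 and 0.872 with exosomes, against 0.820, 0.757 and 0.775 with saline. The groups did not overlap, with means of 0.868 ± 0.012 and 0.784 ± 0.033 (± SD, n = 3 each). The ratio was chosen after the values were seen and is given as a description, without a test. It does not depend on how the libraries are scaled to each other. Its difference between the groups, 0.148 on the log2 scale, stayed between 0.123 and 0.181 with any single library left out, and was 0.125 with exosome 1 and 3 both left out. These settings reuse the libraries in which the ratio was chosen, and the last rests on exosome 2 alone in its group.

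**Figure D4:**
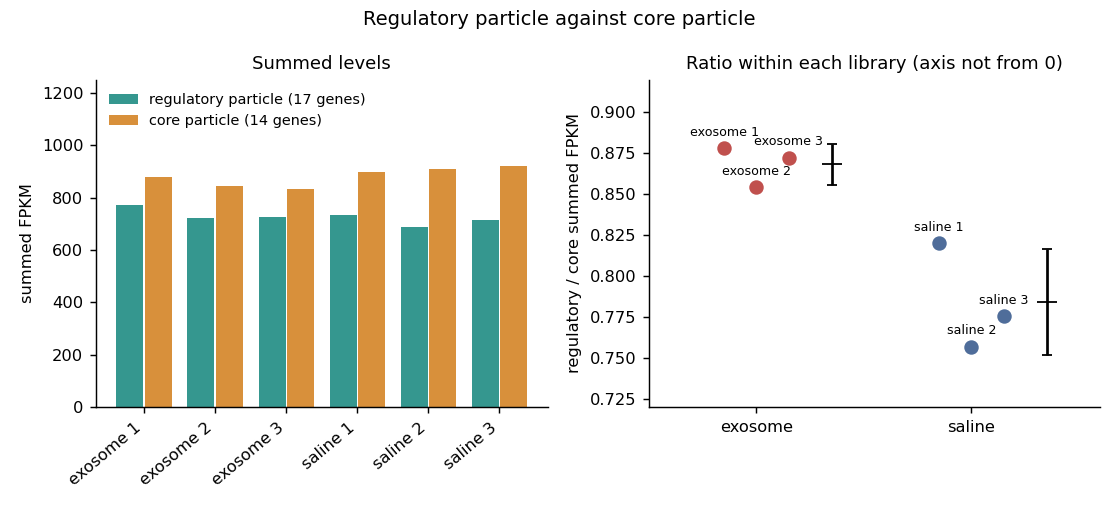
Left, summed FPKM (y axis, from 0) of 17 regulatory particle genes and 14 core particle genes in each library. Right, the ratio of the sums in each library (y axis from 0.72 to 0.92), with the mean and SD of 3 libraries in black. The exosome libraries lie at 0.854 to 0.878, above the saline libraries at 0.757 to 0.820.

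Several other measures differed along the same lines. Core particle genes are short, with a median length of 925 bp against 1520 bp in the regulatory particle, and short genes as a class were lower with exosomes. The median log2 difference was -0.15 over the 1065 tested genes under 1000 bp, -0.11 over the 3271 from 1000 to under 2000 bp and -0.02 over the 2784 of 4000 bp or more. In the middle length range of the regulatory particle subunits, 1403 to 2289 bp, the median over 3018 tested genes was -0.09. In that of the core subunits, 852 to 1005 bp, it was -0.10 over 314 tested genes. With the median of 20 length bins taken out of each library, the mean log2 level of the regulatory particle minus that of the core was -0.47, -0.48 and -0.46 in the exosome libraries, against -0.51, -0.64 and -0.62 in the saline libraries. The groups did not overlap, and the difference was 0.119, against 0.161 before this correction. The difference in the log2 ratio of sums was 0.106 with it, against 0.148 before. The core median turned to 0.04 under the correction, with 11 of 14 core genes above 0 against 3 before, and the regulatory median to 0.15, with 15 of 17 above 0 as before. This correction also takes out the offset between libraries that genes of all lengths share. It moved the median of all genes tested from -0.073 to -0.005. Median-of-ratios scaling, which does not use gene length, moved the core median to -0.005 and the regulatory median to 0.134. The part of gene length in the ratio was not tested further. Within each group the library with the highest ratio of sums, exosome 1 or saline 1, was also the one with the highest sum of smooth muscle markers, 20825 and 21016 FPKM. By the mean log2 measure exosome 3 was the highest of its group, at 18929 FPKM of these markers. The part of cell makeup in the ratio was not tested.

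**Figure D5:**
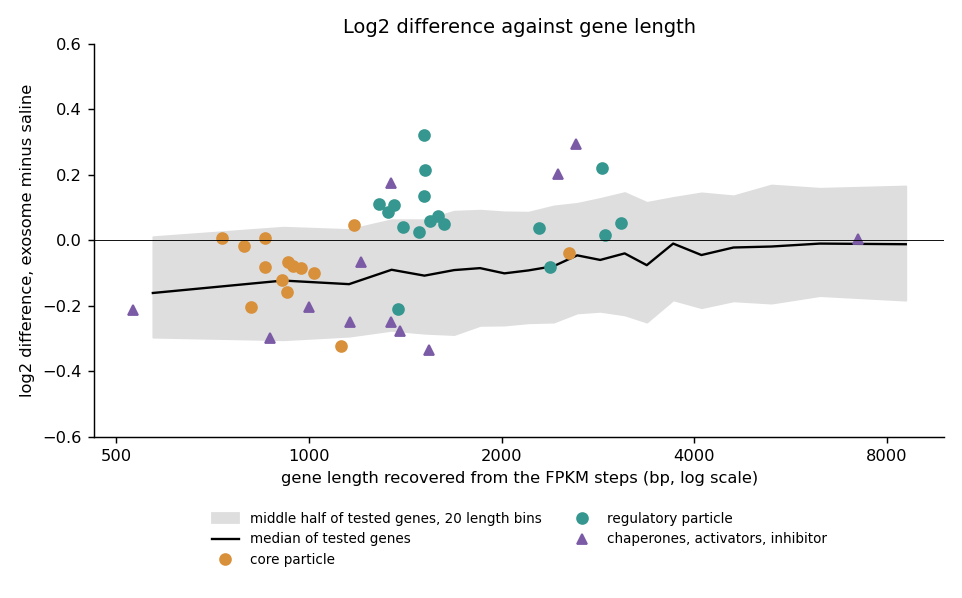
Log2 difference, exosome minus saline (y axis), against gene length recovered from the FPKM steps (x axis, log scale) for the 43 tested proteasome genes, over the median (line) and quartile range (grey band) of all tested genes in 20 length bins. The median of the bins runs from -0.16 for the shortest genes to -0.01 for the longest. Core genes and regulatory particle genes both lie mostly above that line, with Psma4, Psmb3 and Psmb4 of the core below it.

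The proteins that build the proteasome differed among themselves. All 4 chaperones of the core particle, Psmg1 to Psmg4, which pair up to assemble the alpha ring, lay below 0, with a median log2 difference of -0.28. Of all genes tested 60.7% lay below 0, with a median of -0.073. With the length trend removed, and with it the offset between libraries, the difference was -0.121 for Psmg1 and -0.238 for Psmg4. Median-of-ratios scaling gave -0.178 for Psmg1 and -0.27 for Psmg4. Psmg1 stood at 20.6, 21.2 and 18.03 FPKM with exosomes, against 23.0, 23.6 and 25.1 FPKM with saline, with groups apart (log2 difference -0.25 ± 0.11 (SE), adjusted p = 0.310 in limma). Psmg4 had the lowest difference of all members, -0.33 ± 0.18 (SE), at 3.95, 4.98 and 4.06 FPKM with exosomes, against 5.23, 4.69 and 7.46 FPKM with saline. Its groups overlapped, and saline 3 stood above the other saline libraries. Without saline 3 the log2 difference was -0.165, closer to 0 than that of Psma4 at -0.366. Psmg3 ranged from 4.47 to 9.81 FPKM with exosomes and from 7.11 to 11.1 FPKM with saline.

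Of the 3 chaperones of the regulatory particle, which guide the ATPase ring, Psmd5 and Psmd9 lay above 0 and Psmd10 below it. Psmd10, also called gankyrin, stood at 7.63, 7.73 and 7.45 FPKM with exosomes, against 8.99, 8.20 and 9.76 FPKM with saline. The groups were apart (log2 difference -0.21, adjusted p = 0.377 in limma), on 115 to 176 reads per library. Psmd5 stood at 14.4, 12.2 and 16.3 FPKM with exosomes, against 11.9, 11.1 and 13.7 FPKM with saline, with overlap (log2 difference 0.20, adjusted p = 0.473 in limma).

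The activators bind the core in place of the regulatory particle and open its gate without ATP. Psme3, which forms the nuclear activator, stood at 19.4, 19.2 and 21.6 FPKM with exosomes, against 17.4, 15.9 and 15.2 FPKM with saline. Each exosome library was above each saline library (log2 difference 0.29 ± 0.11 (SE), adjusted p = 0.288 in limma). Psme2, which pairs with Psme1 in the interferon-inducible activator, stood at 23.6, 20.4 and 25.1 FPKM with exosomes, against 25.1, 29.6 and 28.0 FPKM with saline. The groups were apart, but exosome 3 and saline 1 differed by under 0.1 FPKM (log2 difference -0.25, adjusted p = 0.339 in limma). Psme1 had a log2 difference of -0.20 and the second highest level of the members, 112.5 FPKM. Psme4, which forms a further nuclear activator, had a log2 difference of 0.005, and Psmf1, an inhibitor of the core, had a log2 difference of -0.28.

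The inducible subunits, which replace the catalytic subunits in immune cells and under interferon, lay outside the rule. Psmb8 stood at 9.35, 16.5 and 15.04 FPKM with exosomes, against 8.89, 12.3 and 16.6 FPKM with saline. Psmb9 stood at 9.05, 10.9 and 15.1 FPKM with exosomes, against 12.04, 13.9 and 15.5 FPKM with saline. Psmb10 stood at 11.2, 10.99 and 14.9 FPKM with exosomes, against 12.2, 14.3 and 16.7 FPKM with saline. The groups overlapped for all 3 genes, and the smallest adjusted p of the 3 was 0.517 in limma.

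The sequences that follow are the 250 bases before the annotated start of 5 members, as RefSeq gives them on GRCr8. They are shown because they belong to the 3 catalytic subunits, and to the lower and the higher member with the smallest p. Capitals mark the matches on either strand to TGACNNNGC, the core of the antioxidant response element bound by the factors of Nfe2l1 and Nfe2l2, to CCAAT and to the heat shock element pair GAANNTTC. Psmb5 is on the minus strand at chr15:32047380-32047629, Psmb6 on the plus strand at chr10:55737638-55737887, Psmb7 on the minus strand at chr3:42827471-42827720, Psma4 on the plus strand at chr8:64236270-64236519 and Psme3 on the plus strand at chr10:86757683-86757932.
Psmb5: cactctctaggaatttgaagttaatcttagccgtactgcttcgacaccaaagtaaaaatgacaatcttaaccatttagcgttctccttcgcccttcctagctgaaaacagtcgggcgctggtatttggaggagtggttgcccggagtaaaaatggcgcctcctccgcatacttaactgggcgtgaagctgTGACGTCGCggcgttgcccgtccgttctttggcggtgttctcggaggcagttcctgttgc
Psmb6: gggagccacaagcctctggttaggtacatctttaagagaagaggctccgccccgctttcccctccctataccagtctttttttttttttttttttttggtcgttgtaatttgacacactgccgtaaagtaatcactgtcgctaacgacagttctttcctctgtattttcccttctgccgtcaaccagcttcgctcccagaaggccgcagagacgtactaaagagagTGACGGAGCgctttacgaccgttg
Psmb7: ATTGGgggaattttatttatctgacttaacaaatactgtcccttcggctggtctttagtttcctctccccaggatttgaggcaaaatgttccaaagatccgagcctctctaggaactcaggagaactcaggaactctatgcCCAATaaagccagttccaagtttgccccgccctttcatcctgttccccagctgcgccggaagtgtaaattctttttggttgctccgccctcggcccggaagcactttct
Psma4: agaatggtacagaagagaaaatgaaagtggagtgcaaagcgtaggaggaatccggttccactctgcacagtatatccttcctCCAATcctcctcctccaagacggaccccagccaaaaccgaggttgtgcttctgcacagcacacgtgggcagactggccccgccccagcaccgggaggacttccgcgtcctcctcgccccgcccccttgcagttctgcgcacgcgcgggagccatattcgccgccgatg
Psme3: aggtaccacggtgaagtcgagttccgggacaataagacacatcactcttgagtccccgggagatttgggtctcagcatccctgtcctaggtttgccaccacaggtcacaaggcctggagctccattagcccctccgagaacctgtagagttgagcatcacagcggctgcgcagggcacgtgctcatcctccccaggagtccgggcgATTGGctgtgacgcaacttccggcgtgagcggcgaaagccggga
Psmb5 and Psmb6 each hold 1 match to TGACNNNGC, 60 and 24 bases before the start. Psmb7 holds no such match and 2 matches to CCAAT, 1 on each strand. Psma4 and Psme3 each hold 1 CCAAT match, on the plus and the minus strand.

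Promoters of 40 members were in the RefSeq table. TGACNNNGC was found in 7 of them (17.5%), against 10.1% of all 33469 promoters of the table, in Psma3, Psmb2, Psmb5, Psmb6, Psmd1, Psmd9 and Psme4. CCAAT was found in 19 (47.5%), against 34.0% of all promoters. GAANNTTC was found in 2 (5.00%), Psmc3 and Psmd1, against 7.23% of all promoters. The log2 differences of the 7 genes with the antioxidant match ran from -0.04 for Psma3 to 0.17 for Psmd9. A match is a description of letters and does not show that a factor binds.

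Genes that control or work beside the proteasome also gave no call. Of 35 listed, 33 were in the table and 32 were tested: 0 passed the adjusted threshold in limma (smallest adjusted p = 0.261), 4 were higher (against 6.75% of all genes) and 1 lower (against 9.24%) at an unadjusted p under 0.05, and groups were apart for 8 (25.0%, against 21.1% of all genes). Nfe2l1, the regulator of subunit transcription, stood at 99.2, 105.3 and 95.5 FPKM with exosomes, against 87.8, 117.1 and 137.9 FPKM with saline. Saline 1 was below and the other saline libraries above the exosome values (log2 difference -0.17, adjusted p = 0.610 in limma). The difference was -0.344 without saline 1 and -0.0213 without saline 3. Ddi2, the protease that activates the Nfe2l1 protein, stood at 10.2, 12.8 and 12.1 FPKM with exosomes, against 8.20, 8.41 and 8.95 FPKM with saline, with groups apart (log2 difference 0.41 ± 0.12 (SE), adjusted p = 0.261 in limma). Nfe2l2, the oxidative stress factor, stood at 33.5, 45.8 and 31.7 FPKM with exosomes, against 29.7, 40.9 and 42.8 FPKM with saline. Its log2 difference of -0.03 turned to 0.0054 with libraries rescaled to equal sums, and to 0.043 with median-of-ratios scaling. Pomp, which matures the core, had only 7 to 19 reads on a feature of 445 bp and was not tested.

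Ubqln1, a shuttle that carries ubiquitinated proteins to the proteasome, stood at 67.0, 48.7 and 74.9 FPKM with exosomes, against 41.9, 39.2 and 45.4 FPKM with saline. The groups were apart, with exosome 1 and 3, the libraries with high heat shock scores, highest (log2 difference 0.56 ± 0.17 (SE), adjusted p = 0.261 in limma). Nploc4, a cofactor of the unfoldase Vcp, also had its highest values in exosome 1 and 3, at 16.4, 12.8 and 15.4 FPKM with exosomes, against 12.2, 10.99 and 11.1 FPKM with saline (adjusted p = 0.287 in limma). Sem1, listed as Shfm1, is the smallest subunit of the lid and was lower, at 32.0, 29.7 and 31.1 FPKM with exosomes, against 36.9, 41.9 and 36.4 FPKM with saline (log2 difference -0.30 ± 0.10 (SE), adjusted p = 0.281 in limma). Of the 11 Psmd subunits of the same particle, Psmd6 shared its sign. Adrm1, a ubiquitin receptor of the particle that was named after its values were seen, stood at 38.6, 35.4 and 39.1 FPKM with exosomes, against 30.8, 27.2 and 34.7 FPKM with saline. Its groups were apart in the higher direction (log2 difference 0.28, adjusted p = 0.307 in limma). The ubiquitin gene Ubb stood at 518.1, 415.4 and 450.7 FPKM with exosomes, against 340.4, 387.5 and 508.3 FPKM with saline. Its groups overlapped.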

How the data were processed

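RNA of rat aorta was measured in 6 libraries, 3 from the exosome group and 3 from the saline group, grouped by the treatment in the labels. The authors deposited FPKM in 1 table of 24005 gene symbols, whose columns match the sample titles. Per the submitters' processing notes DESeq2 1.28.1 was used, with no role given. No aligner, counter, strand setting, build or annotation is given in the sources used here. P-values weigh the group difference against the spread between libraries of a group, moderated over all genes tested. The labels do not tie these libraries to separate rats.

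FPKM values were whole multiples of 1 step per gene and library. Whole reads and lengths were recovered from them for 18430 genes, 100.0% of those above 0, within 0.02 reads. Members held 115 reads or more in every library, except Psma8 and Psmb11. Between pairs of libraries the chi-square per gene ran from 46.8 to 181.9, so none was a copy of another.

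limma 3.58.1 in R 4.3.3 was fitted to log2(FPKM + 1) as a two-sided test with moderation along mean intensity, on the 11742 genes averaging 1 FPKM or more, with Benjamini-Hochberg adjustment and a threshold of 0.05. This scale understates changes of low genes. The fit was also run on simulated data, where genes varied independently and the changes were larger than the members' differences. That run cannot show how well differences of the members' size are found. Alternatives were a pseudocount of 0.1, no filter and a mean of at least 5 FPKM, other scalings, moderation without trend, a replicate block, libraries left out, and limma-voom on recovered reads. The length correction and the ratio of the particles were added after the data were seen. Members and lists were chosen with earlier results of these data known. Of the genes, the text gives library values for the 2 or 3 members of each role with the smallest p, the catalytic subunits, the extremes of level and difference, and the linked genes fixed by name or with the smallest p. Others were named after their values were seen. One gene that this rule names is not reported here. In the GRCr8 gene table, used for names, 19 members have named pseudogenes, 46 in all, and reads shared with them could not be separated. Other steps ran in pandas 2.3.3 and numpy 2.4.6 (Python 3.11.15), with plots from matplotlib 3.10.9.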

Additional observations from a re-analysis of the deposited data

How the results depend on the processing

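No proteasome gene passed the threshold under any of the 16 alternatives run. Over all genes 1 was called, 0 to 9 with a single library left out (0 without exosome 1 or saline 3, 2 without exosome 3, 4 without exosome 2, 9 without saline 1) and 0 with exosome 1 and 3 both left out, where the lone exosome library is assumed to vary like the saline libraries. The members' median log2 difference of 0.005 was 0.041 after rescaling to equal sums, 0.077 after rescaling to the median of ratios, 0.063 with the length trend removed, -0.031 with exosome 1 and 3 left out and -0.043 to 0.022 with 1 library left out. Members with groups apart numbered 8 (18.6%, against 21.1% of all genes). They numbered 10 with the median of ratios (23.3% against 22.3%) and 11 with the length trend removed (25.6% against 21.8%). With 1 library left out they numbered 10 to 19, with 14 without exosome 2 (32.6% against 48.4%) and 19 without saline 1 (44.2% against 39.9%), and 23 with exosome 1 and 3 left out (53.5% against 51.5%). Members at an unadjusted p under 0.05 numbered 4 (9.30%, against 16.0% of all genes), and 1 to 6 over the alternatives. They numbered 6 without saline 1 (14.0% against 18.0%), 5 without exosome 2 (11.6% against 27.4%), 2 without exosome 1 (4.65% against 9.36%), 2 by moderation without trend (4.65% against 15.5%), and 1 (2.33%) with the replicate block (14.6% of all genes), with exosome 1 and 3 left out (5.90%), and without exosome 3 (8.05%), saline 2 (10.1%) or saline 3 (8.48%). The lowest adjusted p of a member ran from 0.126 (Psma4, without exosome 2) to 0.837. With exosome 1 and 3 left out the log2 difference turned to -0.0169 for Psmc4, -0.0032 for Psmd5, -0.0839 for Psmb6 and 0.29 for Nfe2l2. With the length trend removed, and with it the offset between libraries, it turned to 0.0064 for Psma7, 0.0288 for Psma5, 0.0438 for Psmb7 and 0.0364 for Nfe2l2. Nfe2l2 also turned to 0.0054 with equal sums and 0.043 with the median of ratios, and voom gave -0.00010 for Psmb5. With 1 library left out Psmb5 ranged from -0.0495 to 0.0517, Psmb6 from -0.0753 to 0.0688, Psmb8 from -0.10 to 0.34 and Nfe2l2 from -0.19 to 0.067. The cause of the sign changes was not tested. Same-numbered libraries did not deviate together, with correlations over tested genes of 0.07, 0.10 and -0.17. Differently numbered libraries ran from -0.236 to 0.213. With 3 libraries per group these correlations cannot exclude a pairing. With a replicate block 1 gene and 0 members were called, and the members' median was 0.005. Read counts limit Psma8, Psmb11 and Pomp most, and also Psmd10, with 115 to 176 reads per library, whose SE was 0.195 by voom and 0.113 by limma on log2(FPKM + 1).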
